A study of Mus musculus with 4 samples.

Results

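The transcripts described here are those of 10 genes of the BCL2 family in mouse embryonic fibroblasts (MEF cells) with and without genistein. The genes were taken by symbol from the 47937 genes of the deposited count table. They fall into 3 guardians (Bcl2, Bcl2l1 and Mcl1), 2 effectors (Bax and Bak1) and 5 BH3-only members (Bid, Bad, Bbc3, Pmaip1 and Bcl2l11). All 10 passed the filter on low counts, which kept 16240 genes. Total RNA came from wild-type MEF cells left untreated (2 libraries) and from MEF cells given genistein at 50 µM for 24 h (2 libraries). Genistein is a plant isoflavone known as a tyrosine kinase inhibitor and a poison of DNA topoisomerase. MEF cells are connective tissue cells grown from mouse embryos. The genotype label of the treated libraries only repeats the treatment. The labels name a single MEF line, and neither a vehicle in the untreated dishes nor separate cultures for the libraries are stated for these samples. The p-values therefore measure the spread between these libraries, which may be technical.

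The BCL2 family decides at the mitochondrion whether a stressed cell dies. Effector proteins open pores in the outer mitochondrial membrane, which releases cytochrome c, and guardian proteins hold the effectors in check. BH3-only proteins are stress sensors that bind and neutralise guardians or activate effectors directly, and fibroblasts that lack both Bax and Bak1 are known to resist most stimuli that act through this route. The proteins are also governed by cleavage, phosphorylation and turnover, none of which is measured by RNA sequencing.

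A promoter window of each of 3 members is shown because it held one of the motifs searched and the transcript rose with genistein. RefSeq windows were taken of 300 bases around annotated start sites (GRCm38.p6, 250 bases before the start to 50 bases after it). There were 15 such windows for 9 members and none for Pmaip1, so its promoter was not searched. Capitals mark a p53 half-site in the Bax window (chr7:45466849-45467148, minus strand), which lay 201 to 192 bases before the start. In a Bbc3 window (chr7:16310011-16310310, plus strand) they mark the forkhead (FOXO) site, read as TGTTTAC, 167 to 161 bases before the start. In a Bcl2l11 window (chr2:128125788-128126087, plus strand) they mark the same site, read as GTAAACA, 227 to 221 bases before the start. The other windows of Bbc3 and Bcl2l11 held neither the p53 half-site nor the FOXO site.
Bax: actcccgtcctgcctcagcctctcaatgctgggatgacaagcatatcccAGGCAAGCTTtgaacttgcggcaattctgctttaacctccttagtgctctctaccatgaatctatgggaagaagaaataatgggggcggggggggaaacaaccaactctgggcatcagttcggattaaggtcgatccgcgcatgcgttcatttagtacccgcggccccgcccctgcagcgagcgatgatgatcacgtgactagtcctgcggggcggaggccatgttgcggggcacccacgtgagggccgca
Bbc3: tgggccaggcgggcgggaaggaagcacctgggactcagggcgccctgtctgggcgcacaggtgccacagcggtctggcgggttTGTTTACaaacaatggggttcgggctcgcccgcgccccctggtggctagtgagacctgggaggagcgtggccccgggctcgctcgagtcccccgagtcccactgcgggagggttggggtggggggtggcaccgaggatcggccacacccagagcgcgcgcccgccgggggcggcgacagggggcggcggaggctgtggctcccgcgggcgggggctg
Bcl2l11: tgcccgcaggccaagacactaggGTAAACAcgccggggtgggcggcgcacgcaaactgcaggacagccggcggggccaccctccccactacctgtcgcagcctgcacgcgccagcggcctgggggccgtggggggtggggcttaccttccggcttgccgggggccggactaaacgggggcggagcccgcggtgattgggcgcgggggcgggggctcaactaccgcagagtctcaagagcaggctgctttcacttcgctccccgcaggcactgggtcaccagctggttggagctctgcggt

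Both strands of each window were searched for exact matches only, and the motifs are letters in a window, not shown binding sites. The p53 half-site was present in 1 of 15 member windows and in 8.36% of all 32851 windows. A pair of p53 half-sites, adjacent or with a short spacer between them, was present in 0 of 15 member windows and in 0.0731% of all windows. The FOXO site was present in 2 of 15 member windows and in 3.65% of all windows. No member window held both the p53 half-site and the FOXO site. The member windows were rich in G and C, with a median of 65.7% against 52.7% over all windows. The data bear on these windows only through the counts, since no binding was measured.

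The libraries held 28591958 to 31464284 counts over genes and repeats. Counts of genes and repeats varied between replicates beyond sampling noise. The chi-square per degree of freedom was 5.48 between the untreated libraries and 12.1 between the genistein libraries. The summed level of 10 fibroblast markers was 1738 to 1978 library-scaled reads per kilobase of exon (RPKM) in the 4 libraries. Of the 8 markers tested 7 fell and 1 rose at an adjusted p under 0.05. By the same test 38.2% of all kept genes fell and 33.5% rose. Thy1, a fibroblast surface marker, had 0 counts in every library, and Lum had 1 to 10. Epithelial markers summed to 12.7 and 13.6 RPKM in the untreated and 1.98 and 2.20 in the genistein libraries, with Epcam and Krt5 at 0 counts. Blood markers summed to 1.76 and 2.23 RPKM in the untreated and 5.61 and 5.65 in the genistein libraries, with Cd3e and Adgre1 at 0 counts. Endothelial markers summed to 0.120 and 0.139 RPKM in the untreated and 0.360 and 0.420 in the genistein libraries. Neural markers summed to 16.3 and 15.4 RPKM in the untreated and 13.9 and 13.3 in the genistein libraries, with Snap25 and Rbfox3 at 0 counts. Krt14, the single epithelial marker tested, fell (log2 fold change -2.68) and Cd68, the single blood marker tested, rose 2.82-fold. Kdr, the single endothelial marker tested, rose 3.96-fold and Tubb3, the single neural one, fell (log2 fold change -0.22), all 4 past the adjusted p threshold in edgeR. The part of these markers in the results below was not tested.

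The first comparison asked which members of the family changed with genistein. At an adjusted p under 0.05, 6 of the 10 members rose and 3 fell, and Bcl2 did not pass the test. These shares need the background, since 33.5% of all kept genes rose and 38.2% fell by the same test. Past the full set of thresholds (adjusted p under 0.05, absolute log2 fold change over 1 and mean normalised count over 100), 3 members rose and 0 fell, against 3.92% and 4.16% of kept genes. These 3 were the BH3-only genes Bbc3, Pmaip1 and Bcl2l11. Both genistein libraries lay above both untreated libraries for 6 members, which was also the case for 40.7% of kept genes. They lay below for 4 members, against 44.6% of kept genes. The median log2 fold change was 0.50 over the members and -0.03 over all kept genes. In bulk RNA, fewer cells with a transcript and less of it in each cell cannot be told apart.

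**Figure D1:**
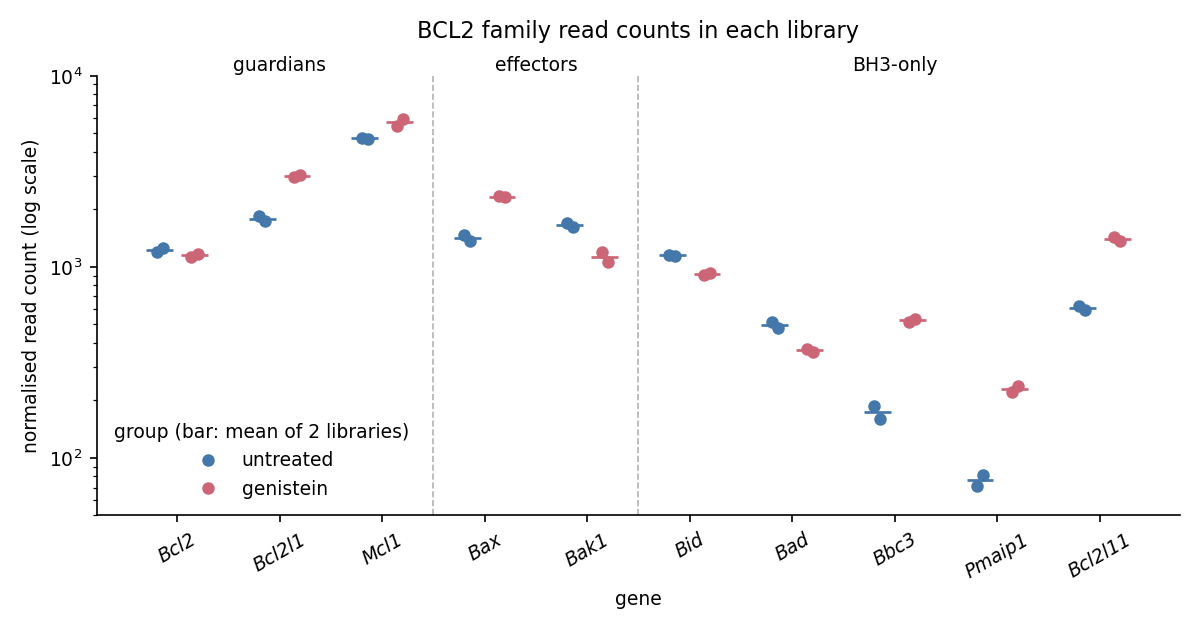
Normalised read count (log scale) of each of the 10 BCL2 family genes, with 1 point for each library, blue for untreated and red for genistein, and a bar at the mean of the 2 libraries of a group. The groups are separate for every gene, with the widest gaps at Bbc3, Pmaip1 and Bcl2l11 and the narrowest at Bcl2, whose values lie between 1131 and 1249. Of all kept genes, 40.7% had both genistein libraries above both untreated ones and 44.6% had them below.

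Among the BH3-only members, 3 rose and 2 fell. The class had the widest spread of changes, from -0.43 to 1.59 on the log2 scale, with a median of 1.20. Bbc3 (PUMA), which binds all guardians and is a textbook target of p53, had normalised read counts of 188 and 160 in the untreated libraries. In the genistein libraries it had 514 and 536. Each genistein value was well above both untreated values, which differed among themselves by less than the gap between groups. The mean rose from 174 ± 19.8 to 525 ± 16.0 (SD, n = 2 each), a 3.01-fold increase with a log2 fold change of 1.59 and a standard error (SE) of 0.09 (adjusted p = 1.60e-10 by the quasi-likelihood test of edgeR, Benjamini-Hochberg adjustment). Of all kept genes, 3.62% had a larger log2 fold change. Bbc3 (ENSMUSG00000002083) spans chr7:16308393-16318205 on the plus strand.

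Pmaip1 (NOXA), a selective partner of the Mcl1 protein, had the fewest reads of the members, 71 and 77 raw counts in the untreated and 235 and 236 in the genistein libraries. The normalised counts were 70.9 and 81.5 without and 220 and 239 with genistein, so the lowest treated library stood far above the highest untreated one. The mean rose from 76.2 ± 7.49 to 230 ± 13.1 (SD, n = 2 each), again 3.01-fold, with a log2 fold change of 1.59 (SE 0.13, adjusted p = 1.33e-08, edgeR with Benjamini-Hochberg adjustment). Its SE was the largest of the 10 members, and 3.63% of kept genes had a larger log2 fold change. Its mean normalised count of 153 lay closest of all members to the count threshold. Pmaip1 (ENSMUSG00000024521) spans chr18:66458533-66465565 on the plus strand.

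Bcl2l11 (BIM), which binds all guardians and is known as a target of FOXO factors, had 623 and 596 normalised counts in the untreated libraries. It had 1437 and 1372 in the genistein libraries, and the groups did not overlap. The mean rose from 610 ± 19.3 to 1404 ± 46.0 (SD, n = 2 each), a 2.30-fold increase with a log2 fold change of 1.20 (SE 0.06, adjusted p = 1.38e-11, edgeR with Benjamini-Hochberg adjustment). A larger log2 fold change was found in 7.34% of kept genes. Bcl2l11 (ENSMUSG00000027381) spans chr2:128126038-128162547 on the plus strand. When the fold threshold itself was tested, the increase stayed past it for Bbc3 (adjusted p = 3.26e-05), Pmaip1 (adjusted p = 9.94e-04) and Bcl2l11 (adjusted p = 0.00525, edgeR's glmTreat for all 3).

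Bid and Bad moved the other way. Bid, which caspase-8 cleaves into its active form and which links death receptors to mitochondria, had normalised counts of 1157 and 1146 without and 905 and 933 with genistein. Both treated values were below both untreated values, and the replicates lay close together. The mean was lower by 20.2% after the treatment, from 1151 ± 7.98 to 919 ± 20.1 (SD, n = 2 each), with a log2 fold change of -0.33 (SE 0.05, adjusted p = 3.54e-05, edgeR with Benjamini-Hochberg adjustment). Bad, which is held inactive by phosphorylation when growth factors are present, had 512 and 476 normalised counts in the untreated libraries. It had 373 and 360 in the genistein libraries, again without overlap. The mean went from 494 ± 25.5 to 367 ± 9.10 (SD, n = 2 each) with a log2 fold change of -0.43 (SE 0.07, adjusted p = 7.23e-05, edgeR with Benjamini-Hochberg adjustment). Both changes were inside the fold threshold, and 31.3% of kept genes had a smaller log2 fold change than Bid and 25.2% than Bad.

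Bid (ENSMUSG00000004446) spans chr6:120891930-120916853 on the minus strand, and 17.7% of its exon bases lie in exons of Bcl2l13 on the opposite strand. Bad (ENSMUSG00000024959) spans chr19:6941861-6951899 on the plus strand and shares 20.5% of its exon bases with Gpr137, also on the opposite strand. Whether reads were counted by strand was not stated, so reads of such pairs cannot be told apart with certainty. For counts assigned to Bcl2l13 the log2 fold change was 0.01 (adjusted p = 0.893) and for those assigned to Gpr137 it was -0.16 (adjusted p = 0.136, edgeR with Benjamini-Hochberg adjustment for both).

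The 2 effectors changed in opposite directions. Bax, which moves from the cytosol into the mitochondrial membrane when activated, had 1463 and 1357 normalised counts in the untreated and 2355 and 2311 in the genistein libraries. Both treated libraries were higher than both untreated ones. The mean rose from 1410 ± 75.1 to 2333 ± 30.9 (SD, n = 2 each), a 1.65-fold increase with a log2 fold change of 0.73 (SE 0.04, adjusted p = 3.66e-10, edgeR with Benjamini-Hochberg adjustment). Bak1, which sits in the mitochondrial outer membrane at rest, had normalised counts of 1706 and 1611 without and 1190 and 1064 with genistein. Its 2 treated libraries were the lower ones and lay further apart than those of Bax. The mean fell from 1659 ± 67.1 to 1127 ± 89.2 (SD, n = 2 each) with a log2 fold change of -0.56 (SE 0.06, adjusted p = 1.62e-07, edgeR with Benjamini-Hochberg adjustment). A larger log2 fold change than that of Bax was found in 16.1% of kept genes, and a smaller one than that of Bak1 in 19.1%. The class median of 0.08 stands between these opposite values and describes neither gene. Without untreated 1 or genistein 2 it was 0.13, and without untreated 2 or genistein 1 it was 0.034 or 0.040.

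Bax (ENSMUSG00000003873) spans chr7:45461697-45466898 on the minus strand, and 12.2% of its exon bases lie in a gene model on the same strand, Gm45808. The deposited counts hold no row for Gm45808. Bak1 (ENSMUSG00000057789) spans chr17:27019810-27029009 on the minus strand and shares 18.2% of its exon bases with Ggnbp1 on the opposite strand. Another gene model named Ggnbp1 on that strand shares 7.35% and has no row in the deposited counts. For counts assigned to Ggnbp1 the log2 fold change was -0.07 (adjusted p = 0.507, edgeR with Benjamini-Hochberg adjustment), and its libraries overlapped between the groups.

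Of the guardians, Bcl2l1 and Mcl1 rose, and Bcl2 did not pass the test. Bcl2l1, whose long product BCL-XL restrains both Bax and Bak1, had normalised counts of 1836 and 1729 without and 2958 and 3040 with genistein. The groups were clearly separate. The mean rose from 1782 ± 75.8 to 2999 ± 58.1 (SD, n = 2 each), a 1.68-fold increase with a log2 fold change of 0.75 (SE 0.04, adjusted p = 8.01e-11, edgeR with Benjamini-Hochberg adjustment), and 15.4% of kept genes had a larger one. The short product BCL-XS of the same gene promotes death, and gene counts do not separate the 2 products. Bcl2l1 (ENSMUSG00000007659) spans chr2:152780668-152831728 on the minus strand.

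Mcl1, a short-lived protein that holds Bak1, had the most reads of the members. The normalised counts were 4721 and 4677 without and 5440 and 5955 with genistein. Both treated libraries were higher, and they differed from each other more than the untreated ones did. The mean rose from 4699 ± 30.9 to 5697 ± 364 (SD, n = 2 each), a 1.21-fold increase with a log2 fold change of 0.28 (SE 0.04, adjusted p = 7.83e-06, edgeR with Benjamini-Hochberg adjustment). Such a change was ordinary among these libraries, since 32.3% of kept genes had a larger one. Mcl1 (ENSMUSG00000038612) spans chr3:95658788-95663176 on the plus strand.

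Bcl2, the founding guardian of the family, had 1196 and 1249 normalised counts in the untreated and 1131 and 1164 in the genistein libraries. The treated values were the lower ones by a narrow margin. The means of 1223 ± 37.8 and 1147 ± 23.4 (SD, n = 2 each) gave a log2 fold change of -0.09 (SE 0.05, adjusted p = 0.117, edgeR with Benjamini-Hochberg adjustment), which did not pass the test. Bcl2 (ENSMUSG00000057329) spans chr1:106538178-106714274 on the minus strand, and 6.09% of its exon bases lie in exons of the antisense gene D630008O14Rik, which had 0 to 1 counts a library. The median log2 fold change of the guardians was 0.28.

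**Figure D2:**
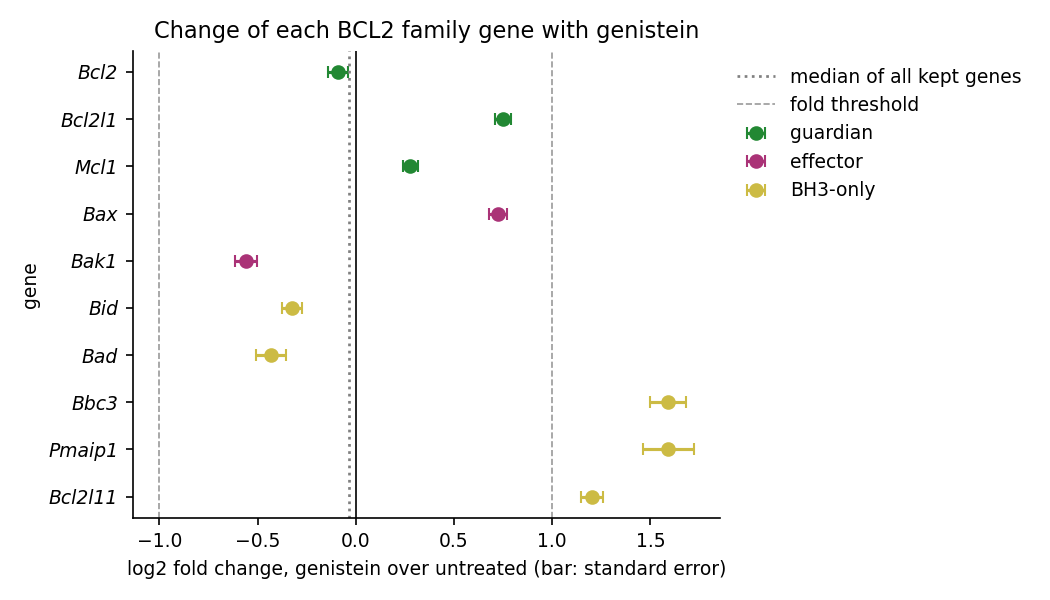
Log2 fold change of each BCL2 family gene, genistein over untreated, with 1 point for each gene, coloured by class, and a bar of 1 SE from edgeR on each side. Bbc3, Pmaip1 and Bcl2l11 lie to the right of the fold threshold at 1, no gene lies to the left of the threshold at -1, and Bcl2 at -0.09 is the nearest to the dotted line at the median of all kept genes.

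The second comparison set the levels of the classes against each other, in RPKM over the union of annotated exons. Guardians summed to 63.9 and 62.9 RPKM in the untreated and 78.9 and 84.6 RPKM in the genistein libraries, 1.29-fold more by the means. Effectors summed to 54.7 and 51.2 RPKM without and 66.5 and 63.8 RPKM with genistein, 1.23-fold more. BH3-only members summed to 24.0 and 23.0 RPKM without and 30.2 and 30.6 RPKM with genistein, 1.29-fold more. The sum was thus higher in both genistein libraries for each class, and the whole family summed to 143 and 137 RPKM without and 176 and 179 RPKM with the treatment.

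The shares of the classes in this sum moved little. Guardians held 45.3% ± 0.768 of the summed RPKM in the untreated and 46.1% ± 1.65 in the genistein libraries (SD, n = 2 each). Effectors held 37.8% ± 0.736 and 36.8% ± 1.58, and BH3-only members 16.8% ± 0.0315 and 17.1% ± 0.0747, in the same order. The libraries of the 2 groups overlapped for guardians (44.8% and 45.9% against 44.9% and 47.3%) and for effectors (38.4% and 37.3% against 37.9% and 35.6%). They did not overlap for BH3-only members (16.8% in both untreated libraries against 17.2% and 17.1%), but with the longest transcript as the length that difference turned round, from 0.33 to -1.30 percentage points. Without genistein 2 the guardian share changed by -0.40 instead of 0.77 percentage points and the effector share by 0.02 instead of -1.09. For each 100 RPKM of guardians there were 37.6 and 36.6 RPKM of BH3-only members in the untreated and 38.2 and 36.1 in the genistein libraries, and these values overlapped. These shares are descriptions of transcript levels and were given no test.

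The make-up within each class changed more than the shares did. Bax made up 56.5% of the effector RPKM in untreated cells and 76.0% in genistein-treated cells, with Bak1 the remaining 43.5% and 24.0%. Bid and Bad made up 46.1% and 27.5% of the BH3-only RPKM without genistein and 28.5% and 15.8% with it. The parts of Bbc3, Bcl2l11 and Pmaip1 went from 11.6%, 10.8% and 3.98% to 27.2%, 19.3% and 9.25%. Among guardians, Mcl1 made up 72.5% without and 68.1% with genistein, Bcl2l1 20.5% and 26.8%, and Bcl2 7.04% and 5.13%.

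**Figure D3:**
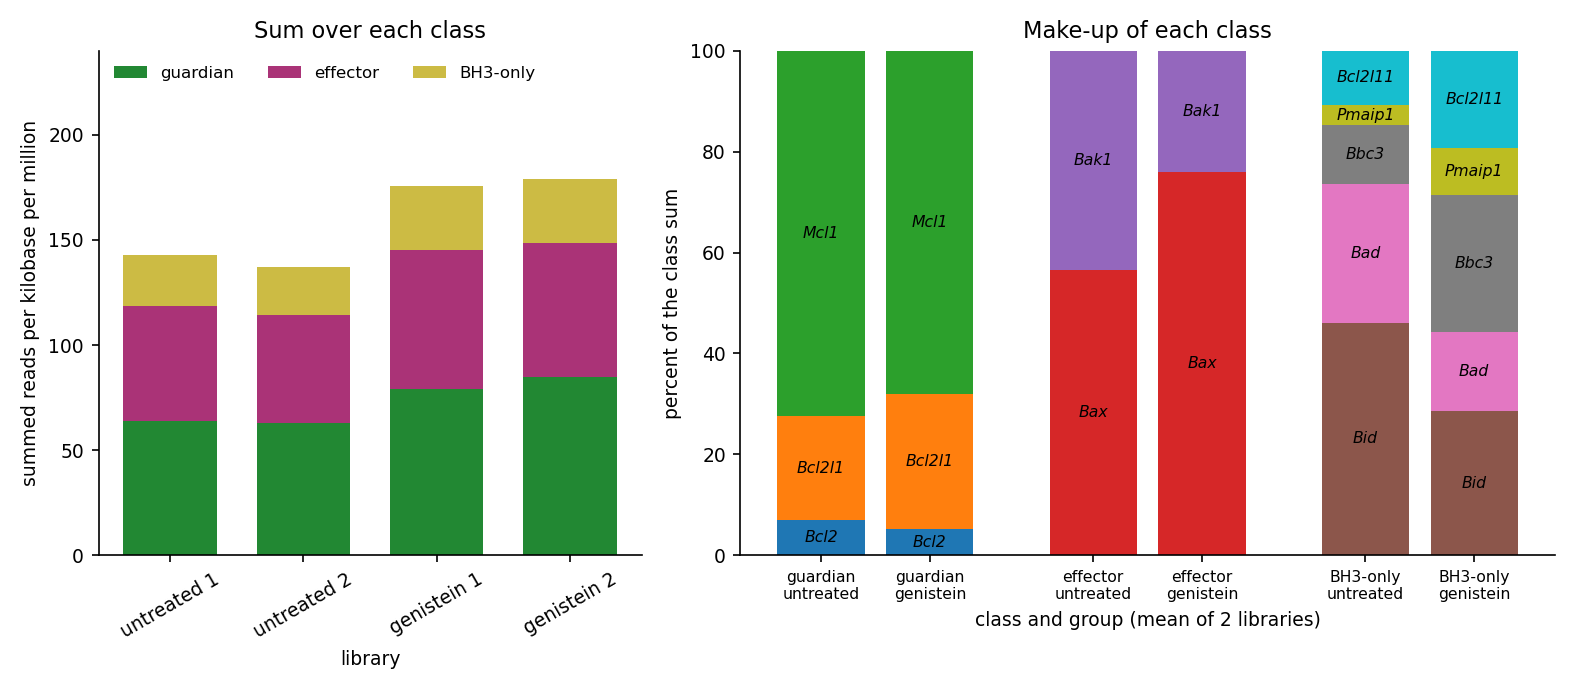
Left, summed RPKM of guardians, effectors and BH3-only members stacked for each of the 4 libraries, which reach 143, 137, 176 and 179 RPKM. Right, percent of the class sum held by each gene in the untreated and genistein groups (mean of 2 libraries), where the Bax part of the effectors is 56.5% and 76.0% and the Bid part of the BH3-only members is 46.1% and 28.5%.

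The order of the single genes by RPKM also shifted. In untreated cells Mcl1 was the highest (46.2 and 45.7 RPKM), followed by Bax (31.0 and 28.8), Bak1 (23.7 and 22.4), Bcl2l1 (13.4 and 12.6), Bid (10.9 and 10.8), Bad (6.70 and 6.23) and Bcl2 (4.37 and 4.56). Bbc3 (2.96 and 2.52 RPKM) and Bcl2l11 (2.60 and 2.48 RPKM) came next with overlapping values, and Pmaip1 was the lowest (0.868 and 0.998 RPKM). In genistein-treated cells Mcl1 (53.2 and 58.2 RPKM) and Bax (49.9 and 49.0 RPKM) stayed first and second. Bcl2l1 (21.6 and 22.2 RPKM) stood above Bak1 (16.5 and 14.8 RPKM), and Bbc3 (8.09 and 8.44 RPKM) stood just below Bid (8.52 and 8.79 RPKM). Bcl2l11 (5.98 and 5.71 RPKM) stood above Bad (4.88 and 4.71 RPKM) and Bcl2 (4.13 and 4.25 RPKM), and Pmaip1 (2.70 and 2.92 RPKM) stayed last. None of these neighbours overlapped in the genistein libraries, but the gap between Bid and Bbc3 was smaller than the spread between the libraries of either gene. With the longest transcript as the length, Bax stood above Mcl1 in genistein-treated cells (means of 70.9 and 55.7 RPKM), and Bcl2l11 above Bbc3 in untreated cells (4.05 and 3.20 RPKM). By that length Bak1 and Bcl2l1 were level in untreated cells (means of 23.2 RPKM each, overlapping), so Bak1 was not above Bcl2l1 there. Bbc3 (9.47 and 9.89 RPKM) and Bcl2l11 (9.54 and 9.10 RPKM) also overlapped in the genistein libraries by that length.

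The third comparison took the ratio of 2 members within a library, for an effector or BH3-only protein and a guardian known to bind it, so that no scaling between libraries enters. The ratio of raw Bax to Bcl2 counts was 1.22 and 1.09 in the untreated and 2.08 and 1.99 in the genistein libraries, a mean log2 change of 0.82. Bcl2l1, whose long product also restrains Bax, was not paired with Bax here. Its log2 fold change of 0.75 was close to the 0.73 of Bax, so the rise of the ratio holds for Bcl2 as partner only. The ratio of Bbc3 to Bcl2l1 was 0.102 and 0.0925 without and 0.174 and 0.176 with genistein, a log2 change of 0.85. The ratio of Bbc3 to Bcl2l1 was thus higher in the treated libraries although Bcl2l1 itself rose. The ratio of Pmaip1 to Mcl1 was 0.0150 and 0.0174 without and 0.0405 and 0.0401 with genistein, a log2 change of 1.32, or 2.49-fold. The ratio of Bak1 to Mcl1 was 0.361 and 0.3445 without and 0.219 and 0.179 with genistein, lower by 44.0% on average. The groups did not overlap for any of the 4 pairs. Such separation was common in these libraries. Among single kept genes, both genistein libraries lay above both untreated ones for 40.7% and below them for 44.6%. No such share was computed for ratios. Counts were not divided by exon length, so a ratio does not compare the levels of its 2 genes. An exact two-sided permutation test over libraries gave p = 0.333 for each pair, also after Benjamini-Hochberg adjustment over the 4 pairs, and 0.333 is the smallest p that 2 libraries against 2 allow.

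**Figure D4:**
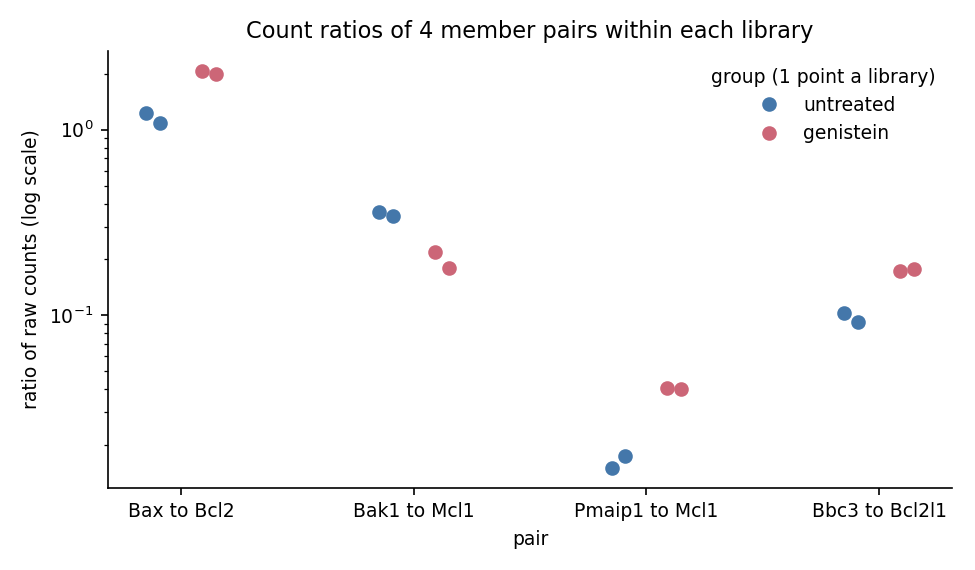
Ratio of raw counts (log scale) of 4 pairs of members within each library, 1 point a library, blue for untreated and red for genistein. The genistein points lie above the untreated points for Bax to Bcl2, Pmaip1 to Mcl1 and Bbc3 to Bcl2l1, and below them for Bak1 to Mcl1, where they are 0.219 and 0.179.

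Of 16 relatives outside the 10 members, 8 had enough counts to be tested. Of these 3 rose and 1 fell, beside 33.5% and 38.2% of all kept genes, and none passed the full set of thresholds. Their median log2 fold change was 0.04. Bok, a relative of Bax and Bak1, had 1169 and 1185 normalised counts in the untreated and 596 and 621 in the genistein libraries (log2 fold change -0.95, SE 0.06, adjusted p = 2.51e-10, edgeR with Benjamini-Hochberg adjustment). Bok thus fell together with Bak1, while Bax rose. Bmf, a BH3-only gene whose product is tethered to the actin cytoskeleton, had 311 and 296 without and 489 and 446 with genistein (log2 fold change 0.63, SE 0.08, adjusted p = 3.17e-06). Bnip3l, a mitophagy receptor, rose by less (log2 fold change 0.19, adjusted p = 4.64e-04, edgeR for both). Becn1, an autophagy gene whose product binds guardians, had a log2 fold change of 0.10 with an adjusted p of 0.0347 in edgeR. Its call was lost under 6 of 10 alternatives, with an adjusted p of 0.00157 to 0.349 over all 10 (edgeR and DESeq2). The 6 included leaving out untreated 2 (adjusted p = 0.195) and genistein 1 (adjusted p = 0.183, edgeR for both). Bcl2a1a, Bcl2a1b, Bcl2a1d and Bik had 0 counts in every library, and Bcl2l10, Bcl2l14, Bcl2l15 and Hrk had at most 11.

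Of the genes that act beside and below the members at the mitochondrion, all 22 listed were tested. Of these 5 rose and 14 fell, beside 33.5% and 38.2% of all kept genes, and the number that fell was 12 to 15 under the alternatives. The median log2 fold change was -0.29 against -0.03 over all kept genes. Apaf1, the scaffold of the apoptosome and a known p53 target, had 2411 and 2472 normalised counts in the untreated and 6229 and 6255 in the genistein libraries (log2 fold change 1.35, SE 0.03, adjusted p = 5.80e-15, edgeR with Benjamini-Hochberg adjustment). Cycs, which encodes the cytochrome c that Bax and Bak1 release, had 1548 and 1532 without and 715 and 702 with genistein (log2 fold change -1.12, SE 0.05, adjusted p = 1.06e-11). The scaffold and its ligand therefore moved apart, and neither showed overlap between groups. Htra2, a protease of the intermembrane space, changed by -1.21 on the log2 scale (adjusted p = 1.52e-12), and Aifm1, a flavoprotein of that space, of -0.78 (adjusted p = 1.20e-10, edgeR for these 3). The executioner caspase gene Casp6 rose by 0.73 on the log2 scale (adjusted p = 2.59e-08, edgeR with Benjamini-Hochberg adjustment).

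Factors known to act on the members were the last group. Of 24 listed, 23 were tested, and 9 rose and 7 fell, close to the 33.5% and 38.2% of all kept genes. The median log2 fold change was -0.03, which changed sign under other scalings (0.04 with library totals alone) and without either genistein library. The 5 past the full set of thresholds all rose, beside 3.92% of kept genes higher and 4.16% lower by that rule. Ddit3 (CHOP), a stress factor known to raise Bcl2l11 and Bbc3, had 494 and 486 normalised counts in the untreated and 2118 and 2126 in the genistein libraries (log2 fold change 2.11, SE 0.05, adjusted p = 5.21e-15, edgeR with Benjamini-Hochberg adjustment). Trib3, a target of Ddit3, had a log2 fold change of 1.69 (SE 0.09), and Mdm2, the ubiquitin ligase of p53 and its target, of 1.62 (SE 0.04). Foxo1 and Foxo3, forkhead factors known to act on Bcl2l11 and Bbc3, had log2 fold changes of 1.33 (SE 0.09) and 1.21 (SE 0.04). All 4 were higher in both treated libraries, with adjusted p = 3.74e-11 for Trib3, 3.46e-15 for Mdm2, 1.36e-09 for Foxo1 and 6.54e-13 for Foxo3 (edgeR with Benjamini-Hochberg adjustment). Any link between these transcripts and those of the members was not tested.

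**Figure D5:**
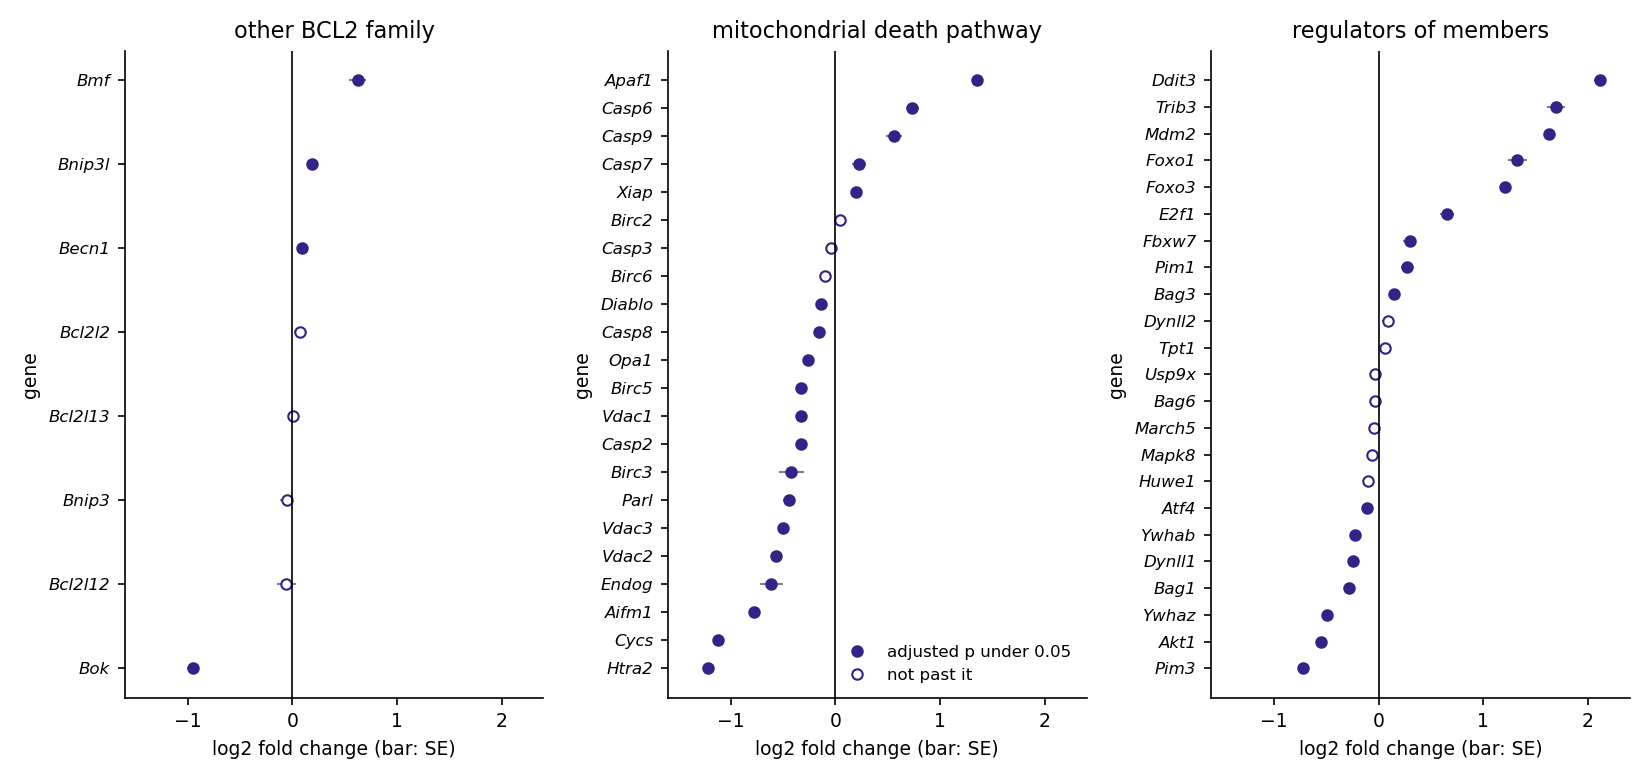
Log2 fold change of the tested genes of 3 lists, other BCL2 family relatives (8 genes), the mitochondrial death pathway (22 genes) and known regulators of members (23 genes), with a bar of 1 SE on each side and filled points for an adjusted p under 0.05. Apaf1 at 1.35 and Ddit3 at 2.11 lie furthest right in their panels, and Bok at -0.95 and Htra2 at -1.21 lie furthest left in theirs.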

How the data were processed

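The authors sequenced paired ends of rRNA-depleted libraries. After trimming (Trim Galore), reads were mapped to mm10 in STAR with multi-mapping reads kept, and TEtranscripts gave counts over GENCODE genes and RepeatMasker repeats. The deposited values were raw counts. Of 49383 entries, 47937 were genes and 1445 repeats, and 1 without a name (0.00208% to 0.00314% of a library) was left out. Library totals were 28591958 to 31464284, which sets the counting error of each value.

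Genes and repeats were fitted together in edgeR 4.0.16 (R 4.3.3) after filterByExpr (16240 genes and 1118 repeats kept), with TMM scaling and the quasi-likelihood test, two-sided, adjusted by Benjamini-Hochberg over all kept entries. Normalised counts are counts over the TMM-scaled library total, times the mean of those totals. RPKM used the same totals and exon lengths of GENCODE on GRCm38, the same assembly as mm10. These lengths and the exon overlaps came from a later GENCODE release than the one behind the counts. The SE is the log2 fold change divided by the square root of F. Thresholds followed the study's methods. Ratios of pairs were compared with an exact permutation test. The script was tested on simulated data.

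The members and lists were chosen with earlier results of these data known. All 10 members are named, and of each other list up to 5 genes: those past all thresholds, then those with the largest absolute log2 fold change at an adjusted p under 0.05, plus genes whose exons overlap a member. Alternatives covered scaling, filtering, DESeq2 1.42.0, a replicate block, the thresholds, the length behind RPKM and leaving out each library. A planned search of member proteins was not run.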

Additional observations from a re-analysis of the deposited data

How the results depend on the processing

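All 100 member log2 fold changes recomputed under 10 alternatives (3 other scalings, no filter, DESeq2, a replicate block and leaving out each of 4 libraries) kept their direction and their side of the adjusted p threshold, and the counts of 6 members higher and 3 lower, with 3 higher and 0 lower past all thresholds, were the same in each. Those last counts also held with a mean count over 10 and with the fold threshold tested directly. The replicate block left 6 members higher and 3 lower. Same-numbered libraries did not deviate together. The correlation between the replicate differences of the untreated and genistein groups was -0.03 over all kept genes and repeats. Nothing shows that the numbers pair the libraries. Of 140 values of the 14 named genes of other lists, 134 kept both, and 6, all of Becn1, lost the threshold. The counts of genes higher and lower ranged over 2 to 4 and 1 for the other relatives, 4 to 5 and 12 to 15 for the mitochondrial list, and 8 to 11 and 6 to 8 for the regulators. Bbc3 ranged from 1.48 to 1.71, Pmaip1 from 1.49 to 1.69, Bcl2l11 from 1.17 to 1.27 and Bcl2 from -0.13 to -0.02.

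Scaling by library totals alone moved the median of all kept genes from -0.03 to 0.04 and the list medians with it, to 0.35 for guardians, 0.15 for effectors, 1.27 for BH3-only members, 0.11 for the other relatives, -0.22 for the mitochondrial death pathway and, with its sign turned, 0.037 for the regulators. Factors from genes alone gave 0.086, -0.25 and, turned, 0.010 for these last 3 lists. Without the filter the mitochondrial and regulator medians were -0.32 and -0.013, and with DESeq2 -0.32 and -0.011. Leaving out 1 library gave medians of 0.21 to 0.35 for guardians, 0.034 to 0.13 for effectors, 0.016 to 0.091 for the other relatives, -0.30 to -0.26 for the mitochondrial list and -0.014 to 0.020 for the regulators, which turned without genistein 1 (0.0083) and without genistein 2. It gave share changes of -0.40 to 1.94 percentage points for guardians and -2.21 to 0.024 for effectors, both turned without genistein 2. With the longest transcript as the length, the effector share changed by 0.23 and the BH3-only share by -1.30 points, both turned. The cause of these shifts was not tested.

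With 2 libraries a group, a single library has much weight, and an arm reduced to 1 library was assumed to vary like the other. Differences between classes in summed RPKM rest on the annotated length, and the smallest member counts, those of Pmaip1 (71 to 236 reads), carry the largest SE.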
